A study of Mus musculus with 14 samples.

Results

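The genes described here were 37 antiviral genes that interferon switches on, taken by name from a table of 46078 mouse genes. They comprised transcription factors of the response (3 genes), sensors of viral nucleic acid (4), effectors that bind RNA (11), Mx GTPases, the viperin pair and membrane effectors (6), enzymes of ISG15, ubiquitin and ADP-ribose (7) and other induced genes (6). All 37 were in the table, and 36 had enough counts to be tested. Ifi27l2a did not pass, with 2 to 46 counts per library. The RNA came from bone marrow of C57BL/6 mice aged 8 weeks, as 14 bulk libraries of 2000 sorted cells each. Immature natural killer cells (iNK) were gated as NK1.1+, DX5+, CD27+ cells without CD3, CD11b or IL-7Ra, and immature type 1 innate lymphoid cells (iILC1) as NK1.1+, CD49a+, IL-7Ra+ cells without CD3. Mice of every group carried 1 knockout allele of Il15, so that no group had a wild-type pair of alleles. Controls were labelled Il-15-flox/KO (n = 3 for iNK and n = 3 for iILC1). In the conditional knockouts (cKO, Vav-Cre;Il-15-flox/KO, n = 4 for iNK and n = 4 for iILC1) a Vav-Cre transgene was present in addition; the Vav promoter drives Cre throughout the blood system, from its stem cells on. Il15 encodes a cytokine that keeps these lymphocytes alive, and non-haematopoietic cells also make it.

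Interferons are secreted proteins that warn cells of infection. Type I interferons signal through the receptor chains IFNAR1 and IFNAR2 and the kinases JAK1 and TYK2 to a complex that holds STAT2 and IRF9 and binds an interferon-stimulated response element (ISRE) beside its target genes. Interferon gamma, which NK cells and ILC1s themselves release, signals through JAK1 and JAK2, and its target genes carry a different site (GAS). Many target genes are transcribed at a low level in resting cells and rise steeply on infection.

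The promoters of 4 of the members that were higher in iILC1 than in iNK of cKO mice are printed first, because those members gave the clearest differences and their promoters hold the element itself. Rtp4, which was also called higher there, had no promoter in the RefSeq set used, so that its promoter was not examined. Each line shows 150 bases that end at the base before the RefSeq start site (build GRCm38.p6), 5′ to 3′ on the gene's strand. Capitals mark matches to GAAANNGAAA on either strand, overlapping matches merged; the reverse complement reads TTTCNNTTTC. Isg15 encodes a small ubiquitin-like protein (gene at chr4:156199424-156200818, minus strand; window chr4:156200819-156200968). Ifit1 encodes a protein that binds foreign RNA ends (gene at chr19:34640871-34650009, plus strand; window chr19:34640739-34640888). Oas1a encodes an enzyme that is switched on by double-stranded RNA (gene at chr5:120896256-120907521, minus strand; window chr5:120907526-120907675). Bst2 encodes tetherin, which holds budding virus at the membrane (gene at chr8:71534264-71537437, minus strand; window chr8:71537473-71537622).
Isg15: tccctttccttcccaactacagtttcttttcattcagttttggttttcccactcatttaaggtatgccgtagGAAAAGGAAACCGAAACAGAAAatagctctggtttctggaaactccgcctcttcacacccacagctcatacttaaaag
Ifit1: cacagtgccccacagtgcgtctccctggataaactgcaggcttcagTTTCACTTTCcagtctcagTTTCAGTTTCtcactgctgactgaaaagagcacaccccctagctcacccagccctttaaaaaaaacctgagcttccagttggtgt
Oas1a: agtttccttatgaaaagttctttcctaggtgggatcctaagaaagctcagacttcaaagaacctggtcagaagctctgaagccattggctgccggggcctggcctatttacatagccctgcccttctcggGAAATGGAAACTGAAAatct
Bst2: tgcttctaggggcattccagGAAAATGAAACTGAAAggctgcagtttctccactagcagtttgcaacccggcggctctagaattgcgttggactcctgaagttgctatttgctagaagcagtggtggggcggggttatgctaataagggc

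Isg15 held 3 overlapping matches, which began 78, 72 and 66 bases before the start site. Oas1a and Bst2 held 2 overlapping matches each, beginning 20 and 14 bases before the start in Oas1a and 130 and 124 bases before it in Bst2. Ifit1 held 2 separate matches, beginning 104 and 85 bases before the start. Over the longer window of 250 bases before to 50 after the start, 27 of the 37 members had a RefSeq promoter, and 14 of the 27 (51.9%) held the ISRE letters. The share over all 27025 genes of the RefSeq table was 3.99%. The looser GAS letters, TTCNNNGAA, were in the promoters of 7 members (25.9%) against 9.55% of all genes. The element was therefore a common property of the list, shared by members that differed between groups (Isg15, Ifit1) and members that did not pass any test (Stat2, Rsad2, Ifit3). A match is a run of letters and not a measured binding site.

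Total counts were 3512796 to 12572326 per library, lowest in control iILC1. Il15 itself stood at 8.16 to 11.1 CPM in control iNK, 8.58 to 12.3 in cKO iNK, 11.7 to 13.7 in control iILC1 and 11.2 to 25 in cKO iILC1 (edgeR adjusted p 0.953 in iNK and 0.979 in iILC1). Counts per gene also cover exons that the deletion may leave, and the deleted part is not given in the sources used here, so that this level does not check the labels: cKO and control denote libraries so labelled. Levels are given as CPM, the count scaled to library size with TMM factors. The libraries of control iNK replicate 1 and cKO iILC1 replicate 1 lay lowest on the first principal component and had the lowest background of their groups, and counts of called members are given with and without both. The sorted cells carried the markers of their gates, with Ncr1 at 646 CPM or more in every library, Il7r at 351 to 718 CPM in iILC1 against at most 27.0 in iNK, and Eomes at 74.0 to 147 CPM in iILC1 against at least 486 in iNK. The 1669 olfactory and vomeronasal receptor genes, silent outside the nose as a rule, summed to 1881 to 3437 CPM in cKO iILC1, 2518 to 3539 in control iILC1, 2004 to 3051 in cKO iNK and 1621 to 2912 in control iNK. These silent genes gave a background level, taken as their 95th percentile per kb of exon in each group. It was 3.65 CPM per kb in control iNK, 4.58 in cKO iNK, 4.87 in control iILC1 and 4.92 in cKO iILC1.

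Most of the antiviral genes were transcribed at a low but measurable level in all 4 groups. Of the 37 members, 22 were above the background level in every group and 10 were at or below it in every group (Ifih1, Ifit3b, Oas2, Oasl2, Isg20, Mx2, Rsad2, Ifitm3, Ifi44 and Ifi27l2a). Dhx58, Oas3, Oasl1, Mx1 and Isg15 were above it in some groups only. The 6 highest members per kb were Lgals3bp, Irf7, Dtx3l, Trim30a, Ddx58 and Rtp4, which differ widely in function. The members' group means lay within 1.5-fold of each other for 19 of the 37 genes and more than 2-fold apart for 7: Isg15, Ifitm3, Ifi27l2a, Ifit1, Ifit3b, Oas1a and Oas3. Of those 7, Ifitm3, Ifi27l2a and Ifit3b were at or below background throughout.

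**Figure D1:**
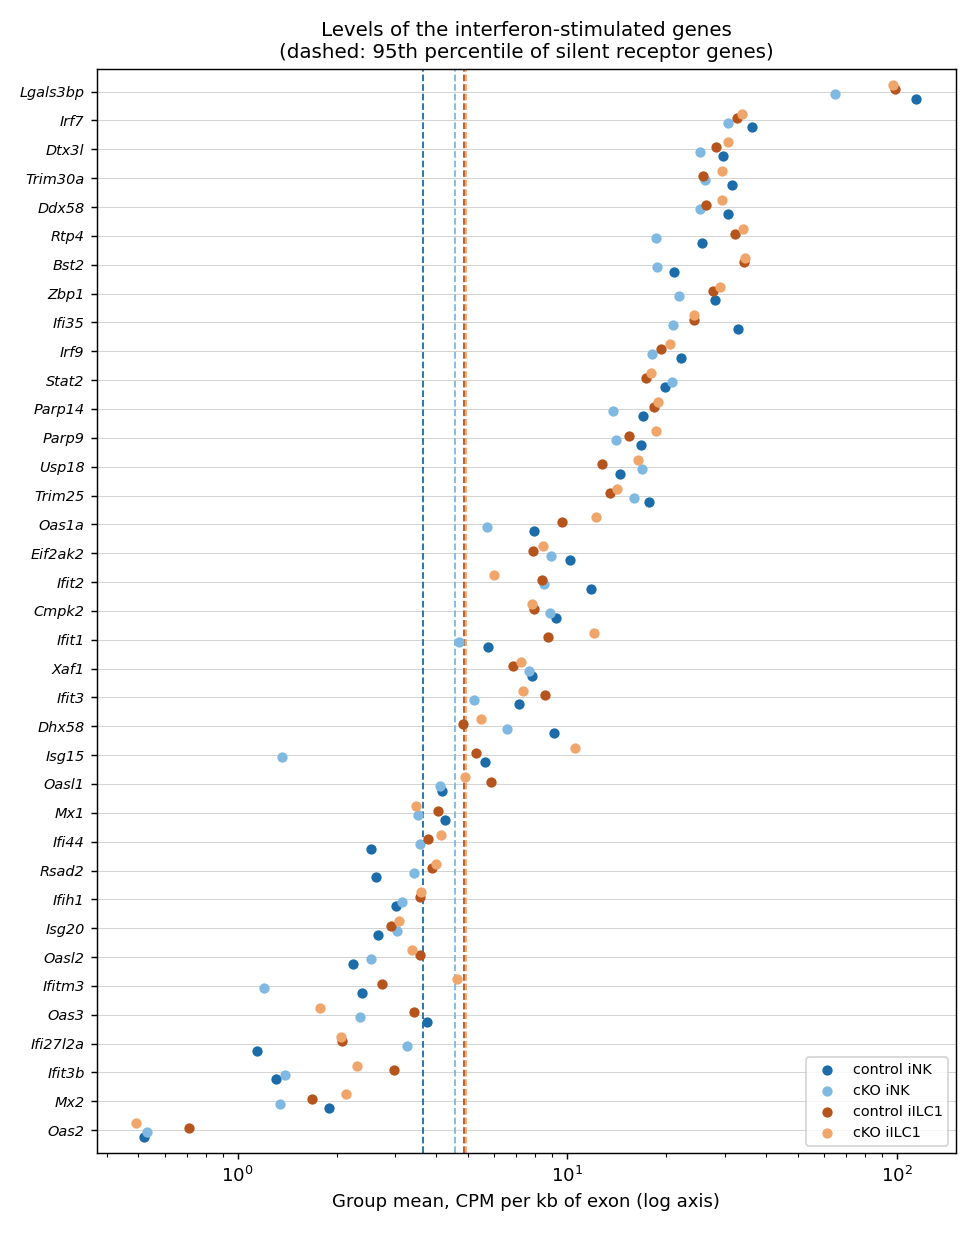
Mean CPM per kb of exon (log axis) of the 37 members, ordered by their mean over all libraries, with 1 point per group. Dashed lines mark the background level of each group, the 95th percentile of 1669 receptor genes. Lgals3bp lies highest, and 10 members lie at or below the background level in all 4 groups.

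Lgals3bp, which encodes a secreted galectin-binding glycoprotein, was the member with the highest level per kb, at 115 CPM per kb in control iNK, 64.9 in cKO iNK, 98.5 in control iILC1 and 97.5 in cKO iILC1. Its cKO iNK libraries lay below those of all other groups. Irf7, the factor that amplifies type I interferon transcription, was the next highest, at 36.3, 30.7, 32.7 and 34 CPM per kb in the same order. Its libraries ran from 72.4 CPM (cKO iNK) to 124 CPM (control iNK), and the ranges of all 4 groups overlapped. Irf7 shares exon positions with Phrf1 on the opposite strand, and the kit does not mark strand, so that reads of the pair cannot be told apart. The partners of the type I complex were as even: the group means of Irf9 lay within 1.22-fold of each other.

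Ddx58, which encodes the RNA sensor RIG-I, stood at 30.7, 25.2, 26.3 and 29.5 CPM per kb (control iNK, cKO iNK, then control and cKO iILC1). Its libraries ran from 157 to 252 CPM in control iNK, 144 to 209 in cKO iNK, 154 to 214 in control iILC1 and 182 to 265 in cKO iILC1, so that every pair of groups overlapped. The other RNA sensor of its kind, Ifih1 (MDA5), was at or below background in all 4 groups. Dtx3l, a ubiquitin ligase that acts with PARP9, stood at 25.2 to 30.7 CPM per kb over the groups, with libraries of 97.3 to 217 CPM that overlapped between all groups. Parp9 and Dtx3l share exon positions on opposite strands, so that their counts are not independent. Trim30a, a TRIM ubiquitin ligase, stood at 25.9 to 31.6 CPM per kb, and its libraries, at 95.3 to 161 CPM, overlapped between the groups too. It belongs to a family of close copies, and how reads of several origins were counted is not given in the sources used here.

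No member passed the test for the Vav-Cre deletion in iNK, and most of the estimates were below 0. By edgeR's quasi-likelihood test with Benjamini-Hochberg adjustment over 26990 genes, 0 of 36 members were called at an adjusted p under 0.05, against 0.408% of all genes. The count was also 0 without the 2 libraries that stand apart, and DESeq2 called 1 member, Lgals3bp. Unadjusted p was under 0.05 for 6 members with a lower and 1 with a higher estimate. The estimate was lower in cKO for 27 of 36 members and higher for 9, with a median log2 fold change of -0.26 against 0.06 over all genes tested. The libraries of both groups did not overlap for 5 members, all lower in cKO (Isg15, Lgals3bp, Oas3, Ifit2 and Dhx58), where 8.84% of all genes did not overlap in either direction and 4.75% did so with cKO lower. The 95% interval lay within a log2 fold change of -1 to 1 for 27 members, so that a 2-fold change was outside the interval for most of them. Whether each sample came from a mouse of its own is not in the labels, so a p-value here speaks for the spread among these samples and no further.

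Isg15, whose product is joined to other proteins during infection, had the lowest p in iNK. It stood at 4.06, 4.09 and 4.64 CPM in the control libraries and at 0.306, 0.693, 0.910 and 2.21 CPM in the cKO libraries. All cKO libraries were below all control libraries, and the cKO library with the highest value, replicate 4, was more than 2-fold above the next. The log2 fold change was -1.93 (SE 0.477, 95% interval -2.91 to -0.96), with an adjusted p of 0.0697 by edgeR's quasi-likelihood test. These levels rest on few reads, 25 to 29 counts per control library and 2, 5, 7 and 26 counts in the cKO libraries. At 1.4 CPM per kb the cKO mean was under the group's background level, whereas the control mean of 5.6 CPM per kb was above it. Without cKO replicate 4 the log2 fold change was -2.64 with an adjusted p of 0.0166 by the same edgeR test. Over the 13 alternative settings with a value for Isg15, the adjusted p of each setting's own test ran from 0.016 to 0.245. In 9 of these 13 settings Isg15 was not called.

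Lgals3bp stood at 346, 340 and 293 CPM in control iNK and at 195, 146, 190 and 208 CPM in cKO iNK. The 2 sets did not overlap, and the lowest control library was well above the highest cKO library. Its log2 fold change was -0.82 (SE 0.220, 95% interval -1.27 to -0.37), with an adjusted p of 0.118 by edgeR's quasi-likelihood test. Unlike Isg15, it was far above background and rests on many reads. Ifi35, a leucine zipper protein, had the next lowest p. It stood at 65.3, 57.8 and 47.7 CPM in control and 41.9, 23.3, 31.2 and 47.8 CPM in cKO, so that the sets met at 1 library of each. Its log2 fold change was -0.66 (SE 0.249), with an edgeR adjusted p of 0.445.

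By role, estimates were lower in cKO iNK for 6 of 7 enzymes of ISG15, ubiquitin and ADP-ribose, 5 of 6 Mx, viperin-pair and membrane genes, 7 of 11 RNA-binding effectors, 3 of 4 sensors, 2 of 3 transcription factors and 4 of 5 other induced genes. None of these differences passed the test. Estimates of the members with a higher value in cKO were between 0.01 (Oas2) and 0.51 (Ifi44), and 7 of the 9 such genes (Ifih1, Ifit3b, Oas2, Oasl2, Isg20, Rsad2 and Ifi44) were at or below background in every group. The libraries moved together: in cKO iNK replicate 2, 5 of 36 members were above the group mean, with a median deviation of -0.30 on the log2 scale, against 21, 27 and 26 members in the other 3 libraries. A count of members in 1 direction therefore does not add up independent observations.

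**Figure D2:**
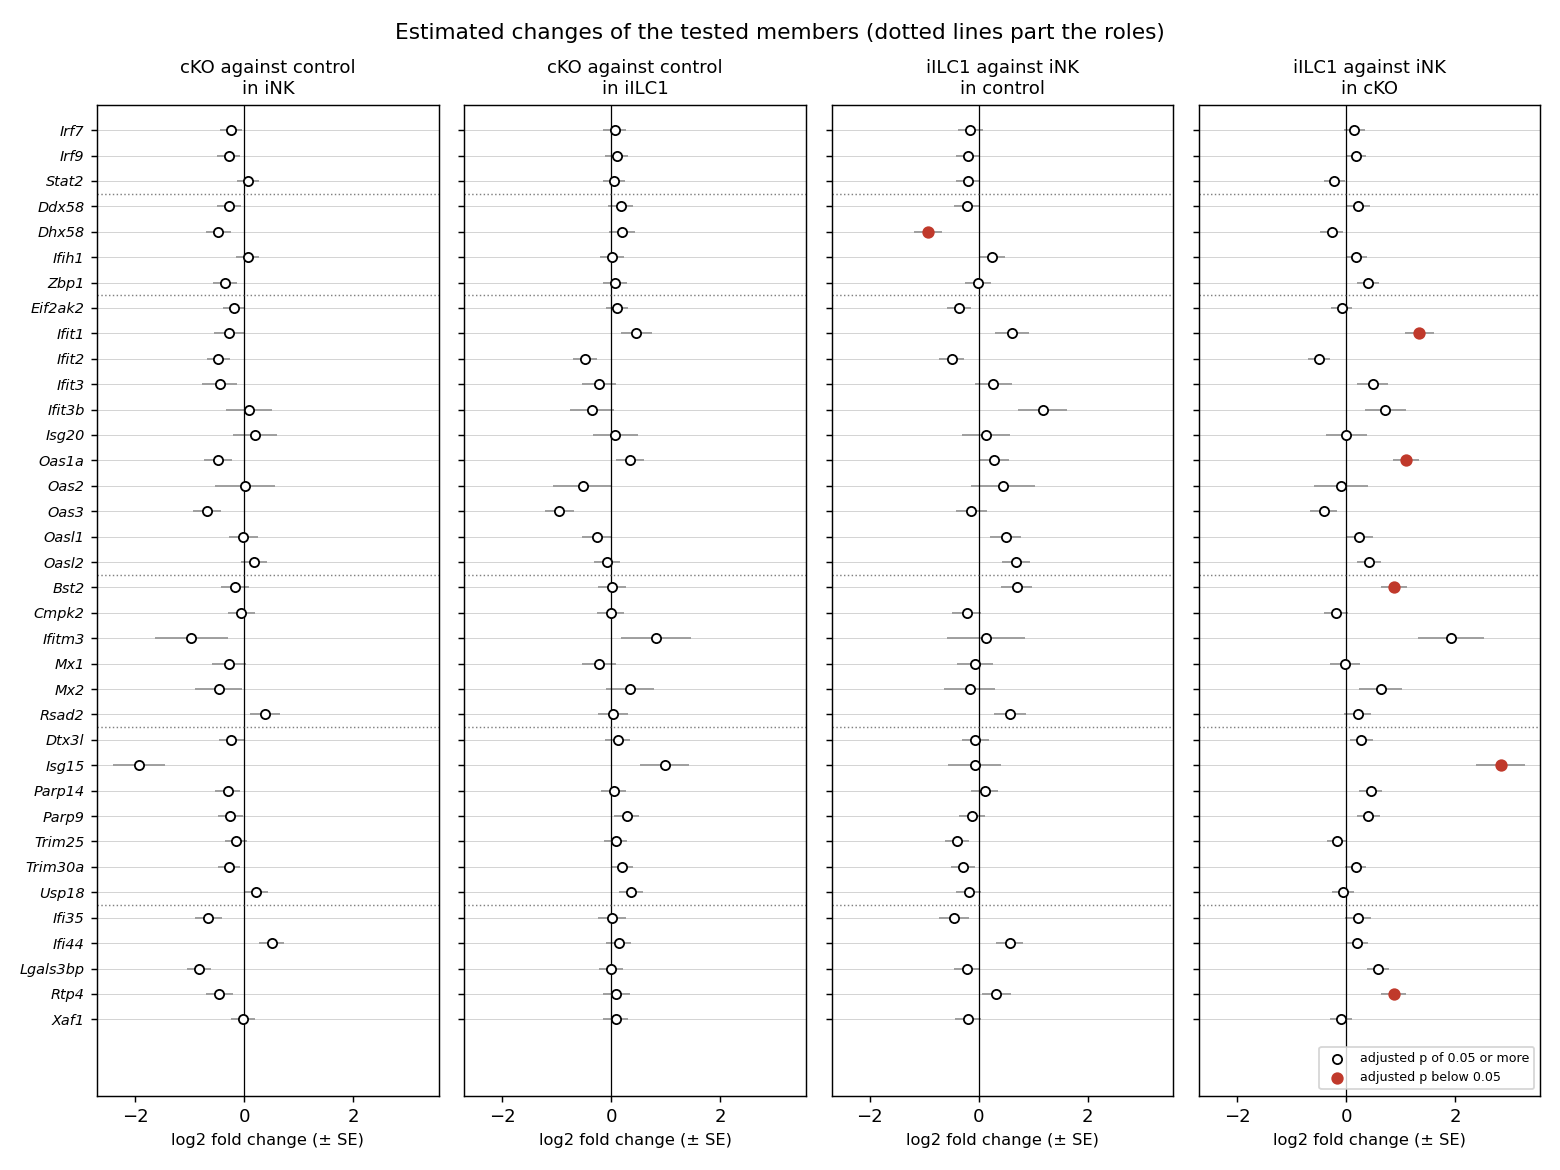
Log2 fold change of cKO against control (left panels) and of iILC1 against iNK (right panels) for the 36 tested members by role, with bars of 1 SE from the edgeR fit and filled points for an adjusted p under 0.05. In iNK 27 estimates of the genotype effect lie below 0 and in iILC1 10 do, and the filled points are 1 in control and 5 in cKO mice between the cell types.

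Markers of other cells differed between these iNK groups. The summed level of 13 B-lineage markers was 60.9 to 77.7 CPM in control iNK and 369 to 521 in cKO iNK, and 7 of the 13 were called higher in cKO. The summed level of 9 markers of plasmacytoid dendritic cells, which make much type I interferon, was 276 to 308 CPM in control and 313 to 432 in cKO, with 2 of 9 (Spib and Ly6d) called higher. Replicate 4, the cKO library with the highest Isg15 and Ifi27l2a (3.92 CPM) of its group, had a summed level of these markers of 403 CPM, within the range of the other 3 libraries. The single markers were not uniform in replicate 4. Siglech (15.5 CPM), Cox6a2 (42.3), Ly6d (26.7) and Tcf4 (156) were at their highest of the group there. Ptprs (57.3 CPM) was at its lowest, and Ccr9, Klk1, Spib and Runx2 lay between. Of 9 erythroid markers, 8 had higher estimates in cKO (median log2 fold change 2.18) and 2, Hbb-bs and Hbb-bt, were called, with sums of 351 to 424 CPM in control and 278 to 862 in cKO. The control sums were led by Car2, the 1 marker with a lower estimate, at 336 to 376 CPM in control and 193 to 264 in cKO. Hbb-bs stood at 1.28 to 15.9 CPM in control and 31.1 to 263 in cKO. Of 9 T-cell markers 1, Cd247, was called lower. It stood at 134 to 169 CPM in control iNK, above its 62.4 to 74.7 in control iILC1, and Cd3e at 2.19 to 4.96 in control iNK. Cd247 therefore did not follow Cd3e in these cells. Of 12 monocyte and 9 neutrophil markers 0 were called. The neutrophil markers summed to 77.1 to 335 CPM in control iNK. In cKO iNK they were uneven, at 19.6 CPM in replicate 1, 468 in replicate 2, 381 in replicate 3 and 19.3 in replicate 4. No marker was at 0 in all libraries of a group. The part of these markers in the antiviral genes' values was not tested. In bulk RNA, fewer cells that express a gene and less RNA of it per cell cannot be told apart.

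No antiviral gene passed the test for the deletion in iILC1 either. None of 36 members was called, against 0.0482% of all genes, by edgeR's quasi-likelihood test, DESeq2 or without the 2 libraries that stand apart, and unadjusted p was under 0.05 for 1 member with a higher and 2 with a lower estimate. The estimate was higher in cKO for 26 members and lower for 10, with a median log2 fold change of 0.07 against 0.01 over all genes. The 95% interval lay within a log2 fold change of -1 to 1 for 29 of 36 members. This median was negative in 5 of 15 alternative settings, at -0.041 to -0.0157. The libraries of 2 members, Oas3 and Ifit2, did not overlap, both lower in cKO, where 5.48% of all genes did not overlap in either direction and 2.82% did so with cKO lower.

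Oas3, the largest of the 2′-5′ oligoadenylate synthetases, had the lowest p in iILC1. It stood at 23.4, 21.9 and 27.5 CPM in control and at 9.21, 11.8, 14.5 and 14.7 CPM in cKO. Every cKO library was below every control library. The log2 fold change was -0.95 (SE 0.265, 95% interval -1.497 to -0.41), with an adjusted p of 0.471 by edgeR's quasi-likelihood test. In iNK the cKO libraries of Oas3 lay below the control libraries too, at 21.0, 11.8, 22.1 and 11.8 CPM against 26.9, 29.8 and 23.2 CPM in control, again without overlap (log2 fold change -0.68, edgeR adjusted p 0.447). Per kb of its long exons it was above background in control iNK only.

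Ifit2, an RNA-binding protein of the IFIT family, had close estimates in both cell types. In iILC1 it stood at 27.5, 33.0 and 37.9 CPM in control and at 24.5, 20.1, 22.4 and 27.5 CPM in cKO, where the lowest control and the highest cKO library were level to 3 digits. In iNK it stood at 47.8, 49.8 and 41.6 CPM in control and at 34, 24.1, 35.7 and 39.6 CPM in cKO, with a gap between the sets. The log2 fold changes were -0.48 (SE 0.218) in iILC1 and -0.47 (SE 0.213) in iNK, with edgeR adjusted p-values of 0.979 and 0.587. The difference between them was -0.01 (95% interval -0.62 to 0.61).

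Isg15 had a positive estimate in iILC1. It stood at 2.92, 3.58 and 5.50 CPM in control and at 11.7, 6.12, 5.09 and 8.90 CPM in cKO. One cKO library, replicate 3, fell within the control range and the other 3 were above it. The log2 fold change was 0.98 (SE 0.453, 95% interval 0.05 to 1.90), with an edgeR adjusted p of 0.979. Between these iILC1 groups B-lineage markers summed to 168 to 265 CPM in control and 365 to 527 in cKO, with 2 of 13 called higher, and plasmacytoid dendritic cell markers to 190 to 229 and 210 to 259, with 0 of 9 called. Neutrophil markers summed to 28.4 to 37.8 CPM in control and 28.4 to 339 in cKO, with higher estimates for 8 of 9 (median log2 fold change 2.51), 6 at an unadjusted p under 0.05 and 0 called. T-cell markers summed to 626 to 998 CPM in control and 510 to 985 in cKO, with lower estimates for 7 of 9, 5 of them without overlap and 1, Trac, called. Of 12 monocyte and 9 erythroid markers 0 were called. Their part in these values was not tested.

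Whether the deletion acted differently in the cell types was tested as a difference of effects, that in iILC1 less that in iNK. No member passed edgeR's test, against 0.0778% of all genes, and DESeq2 called Isg15; unadjusted p was under 0.05 for Isg15, Lgals3bp and Oas1a, all with a positive difference. The difference was positive for 25 of 36 members, with a median of 0.26 on the log2 scale against -0.03 over all genes. Isg15 had the lowest p, with a difference of 2.91 (SE 0.660, 95% interval 1.56 to 4.26) and an adjusted p of 0.128 by edgeR's quasi-likelihood test. Without cKO iNK replicate 4 that difference was 3.59, with an edgeR adjusted p of 0.0303. Over the 20 alternative settings with a value for Isg15, the adjusted p of each setting's own test ran from 0.00924 to 0.453. In 16 of these 20 settings Isg15 was not called. Lgals3bp differed by 0.81 (95% interval 0.17 to 1.45) and Oas1a by 0.82 (0.08 to 1.56), both with an edgeR adjusted p of 0.705. Intervals were wide here: only 13 members had a 95% interval within -1 to 1.

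**Figure D3:**
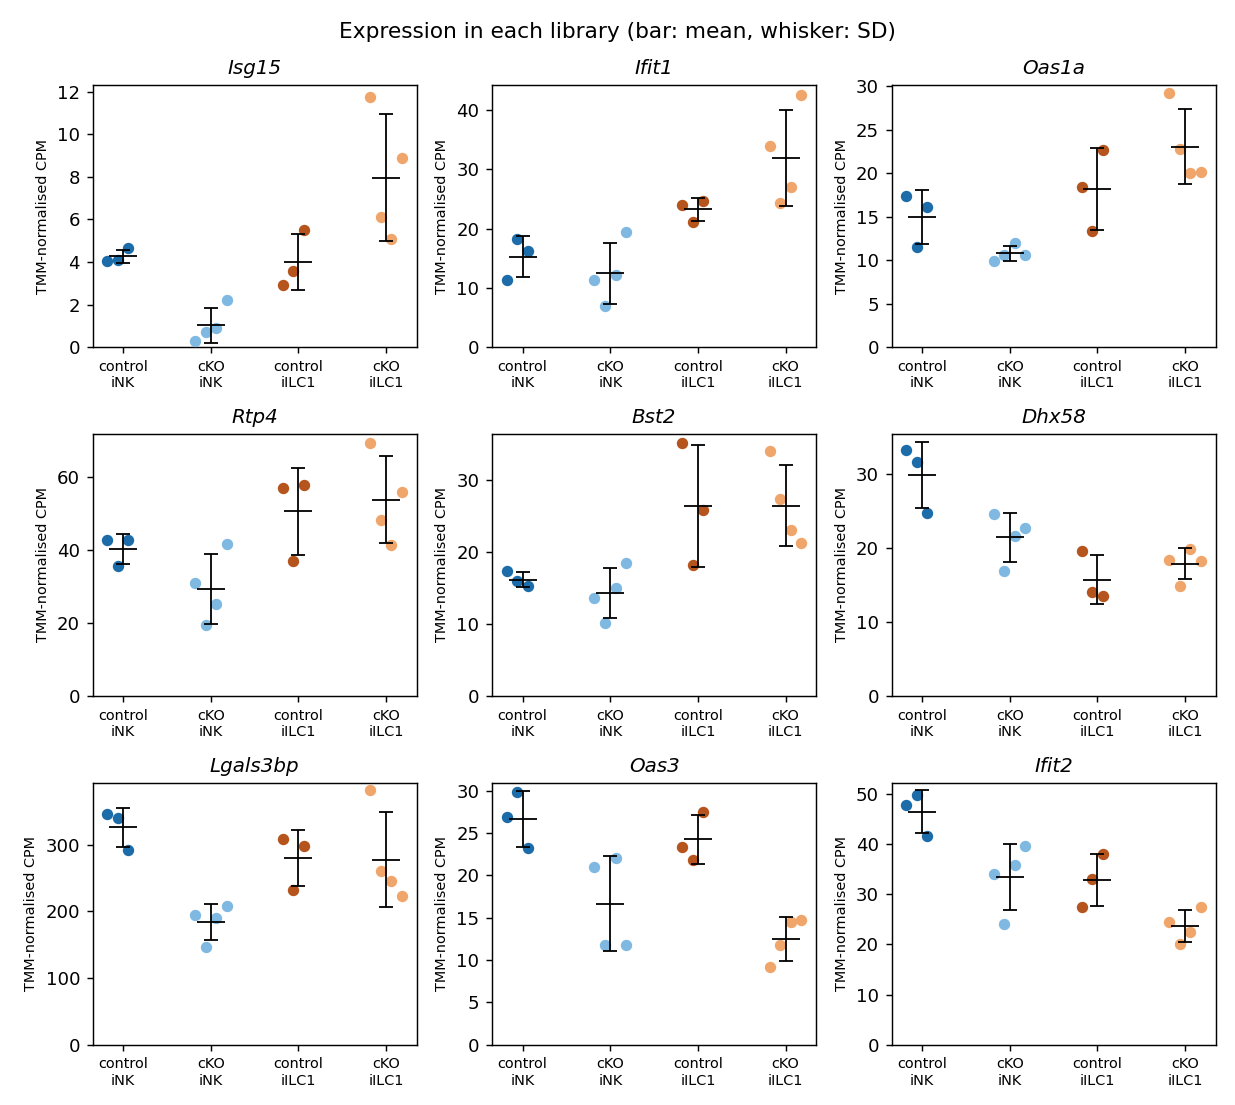
CPM in each of the 14 libraries for 9 of the members described singly, with points for libraries, bars for group means and whiskers for 1 SD. The cKO iNK libraries of Isg15 lie below those of the other 3 groups, and its cKO iILC1 libraries include the highest values.

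The clearest differences lay between the cell types in cKO mice. In cKO iILC1, 5 of 36 members were higher than in cKO iNK and 0 lower by edgeR's quasi-likelihood test, where 3.42% of all genes were called and 1.74% were called higher. The 5 were Isg15, Ifit1, Oas1a, Rtp4 and Bst2, and without the 2 libraries that stand apart the first 3 of these were called. Estimates were higher in iILC1 for 25 members and lower for 11, with a median log2 fold change of 0.22 against 0.01 over all genes. The libraries of 6 members did not overlap, all higher in iILC1 (Isg15, Ifit1, Oas1a, Bst2, Ifitm3 and Lgals3bp), against 6.61% of all genes in either direction and 3.52% higher.

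Isg15 differed most. The iILC1 libraries, at 11.7, 6.12, 5.09 and 8.90 CPM, were all above the iNK libraries, at 0.306, 0.693, 0.910 and 2.21 CPM. The log2 fold change was 2.84 (SE 0.446, 95% interval 1.92 to 3.75), with an edgeR adjusted p of 7.6e-05. Per kb the iILC1 mean was 10.5 CPM, above its background level, and the iNK mean was below its own. Counts were 97, 50, 32 and 70 in iILC1 and 2, 5, 7 and 26 in iNK.

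Ifit1 stood at 33.9, 24.4, 27.0 and 42.5 CPM in cKO iILC1 and at 11.3, 6.93, 12.2 and 19.4 CPM in cKO iNK. The sets did not overlap, and replicate 4 was the highest library of both. This gave a log2 fold change of 1.34 (SE 0.262, edgeR adjusted p 0.00137). Oas1a stood at 29.2, 22.8, 20.04 and 20.1 CPM in cKO iILC1 (SD 4.31) and at 9.94, 10.5, 12.0 and 10.6 CPM in cKO iNK (SD 0.849), without overlap. Its log2 fold change was 1.10 (SE 0.235, edgeR adjusted p 0.00388). Oas1a has close copies in its gene cluster, so that its count is uncertain in that respect.

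Rtp4, which encodes a chaperone of receptors that also inhibits viruses, stood at 69.4, 48.4, 41.5 and 55.9 CPM in cKO iILC1 and at 31.0, 19.4, 25.1 and 41.7 CPM in cKO iNK. The sets overlapped by 1 library of each. Its log2 fold change was 0.87 (SE 0.227, edgeR adjusted p 0.0232). Bst2 stood at 33.9, 27.3, 23.1 and 21.2 CPM in cKO iILC1 and at 13.6, 10.1, 14.9 and 18.4 CPM in cKO iNK, without overlap. For Bst2 the log2 fold change was 0.88 (SE 0.239, edgeR adjusted p 0.0327). Rtp4 and Bst2 lay near the threshold: Rtp4 was no longer called in 4 of the alternative settings and Bst2 in 6, whereas Isg15, Ifit1 and Oas1a were called in every setting in which they were tested. Those 3 alone were called when cKO iNK replicate 1, 2 or 3 was left out.

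The members that were higher in cKO iILC1 came from 4 of the 6 roles: 2 RNA-binding effectors, 1 membrane effector, 1 ISG15 gene and 1 other induced gene. No transcription factor and no sensor was called, and Irf7, Irf9 and Stat2 had log2 fold changes of 0.15, 0.18 and -0.21. The IFIT family was not uniform, since Ifit2 had an estimate of -0.50 (SE 0.200, edgeR adjusted p 0.286) beside the 1.34 of Ifit1. The OAS family was not uniform either, with -0.41 for Oas3 (edgeR adjusted p 0.703) beside 1.10 for Oas1a.

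Markers of other cells moved with this comparison too. Plasmacytoid dendritic cell markers summed to 210 to 259 CPM in cKO iILC1 and 313 to 432 in cKO iNK, with 4 of 9 called lower in iILC1. B-lineage markers summed to 365 to 527 CPM in cKO iILC1 and 369 to 521 in cKO iNK, with 5 of 13 called lower and 2 higher in iILC1. Monocyte markers summed to 506 to 913 CPM in cKO iILC1 and 1140 to 1614 in cKO iNK, a sum led by Ccr2 (log2 fold change -1.41), whereas 9 of 12 had higher estimates in iILC1 (median 0.46), with 1 called higher and 2 lower. Of 9 T-cell markers 3 were called higher and 1 lower, of 9 neutrophil markers 1 higher, and of 9 erythroid markers 0, with 8 lower in estimate (median -1.83). Their part in the members' values was not tested.

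In control mice Dhx58 (LGP2), the third RIG-I-like receptor, was the one member that passed the test between the cell types, and it was lower in iILC1. That is 1 of 36 members, against 3.91% of all genes called and 3% called lower. It stood at 33.3, 31.6 and 24.8 CPM in control iNK and at 19.6, 14.1 and 13.6 CPM in control iILC1, without overlap. The log2 fold change was -0.93 (SE 0.254, 95% interval -1.45 to -0.41), with an edgeR adjusted p of 0.0345. The call was lost, with an edgeR adjusted p of 0.128 to 0.193, when control iNK replicate 1 or 2 or control iILC1 replicate 2 or 3 was left out, and it was lost too without the 2 libraries that stand apart (0.0803) and with the background covariate (0.148). In cKO mice the estimate for Dhx58 was -0.26 (edgeR adjusted p 0.871), with 24.6, 16.9, 21.6 and 22.7 CPM in iNK and 18.4, 14.9, 19.9 and 18.3 CPM in iILC1, which overlapped. Its per-kb level was above background in both iNK groups and in cKO iILC1, and below it in control iILC1.

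Over all members in control mice, 15 estimates were higher and 21 lower in iILC1, with a median log2 fold change of -0.07 against 0.16 over all genes. This median was positive in 4 of 14 alternative settings, at 0.00164 to 0.179. The libraries did not overlap for 7 members with iILC1 higher and 4 with iILC1 lower, against 25% of all genes in either direction, 12% with iILC1 higher and 13% with iILC1 lower. The 5 members called in cKO mice had estimates of -0.07 (Isg15), 0.61 (Ifit1), 0.28 (Oas1a), 0.33 (Rtp4) and 0.70 (Bst2) in control mice, none of which passed the test. The values of Isg15, at 4.06 to 4.64 CPM in control iNK and 2.92 to 5.50 in control iILC1, overlapped. Plasmacytoid dendritic cell markers summed to 276 to 308 CPM in control iNK and 190 to 229 in control iILC1, with 5 of 9 higher in estimate (median 0.73) and 2 called lower. Monocyte markers summed to 1097 to 1968 and 561 to 841 CPM, a sum led by Ccr2 (log2 fold change -1.25), with 9 of 12 higher in estimate (median 0.47), 1 called higher and 2 lower. Neutrophil markers summed to 77.1 to 335 CPM in control iNK and 28.4 to 37.8 in control iILC1. Estimates were lower in iILC1 for 8 of these 9 (median log2 fold change -3.42), with 7 at an unadjusted edgeR p under 0.05 and 1 called. B-lineage markers had 2 of 13 called higher in iILC1, T-cell markers 3 of 9 higher and 1 lower, and erythroid markers 0 of 9. The part of these markers in the members' values was not tested. The difference between the 2 cell-type contrasts is the interaction given above, which no member passed.

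Summed over the 37 members, CPM was 2125 ± 271 (SD, n = 3) in control iNK, 1714 ± 222 (n = 4) in cKO iNK, 1959 ± 278 (n = 3) in control iILC1 and 2060 ± 315 (n = 4) in cKO iILC1. Of the 37 group means, 18 were lowest in cKO iNK, 7 in control iNK, 7 in control iILC1 and 5 in cKO iILC1. The highest mean was in cKO iILC1 for 15 members and in control iNK for 14. The coefficient of variation between libraries of a group, taken as the median over the groups, was 9.17% to 58.6% over the members, with a median of 19%. The members of a library tended to lie on the same side of their group mean. The 4 libraries with a median deviation under -0.1 on the log2 scale were control iNK replicate 3, cKO iNK replicate 2, control iILC1 replicate 2 and cKO iILC1 replicate 2, at -0.15, -0.30, -0.24 and -0.15. Their silent receptor genes summed to 2912, 3051, 3539 and 2890 CPM, and the other 10 libraries to 1621 to 3437. With the log2 background sum as a covariate, 2 members were called between genotypes in iNK, 0 in iILC1, 2 between cell types in control and 10 in cKO mice.

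**Figure D4:**
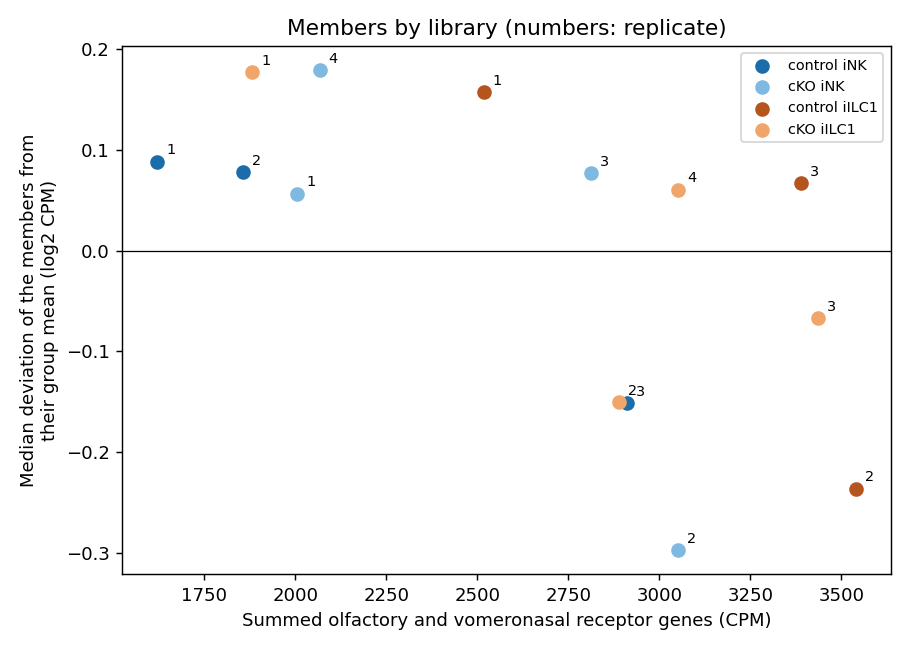
Median deviation of the 36 tested members from their group mean (log2 CPM, vertical) against the summed CPM of the silent receptor genes (horizontal) in each of the 14 libraries, with replicate numbers. The 4 libraries under -0.1 had background sums of 2890 to 3539 CPM.

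The wider interferon pathway was described by 77 further genes, of which 69 were tested: ligands, receptors and transducers, feedback inhibitors, inducers and further inducible genes. In iNK 1 of 69 was called between genotypes, against 0.408% of all genes. It was Ifng, the cytokine of NK cells and ILC1s, which fell in cKO from 23.0, 24.6 and 8.64 CPM to 4.59, 4.44, 4.81 and 9.88 CPM (log2 fold change -1.63, SE 0.354, edgeR adjusted p 0.0283). The libraries overlapped through control replicate 3 and cKO replicate 4. Estimates were lower for 54 of the 69 genes, with a median of -0.12 against 0.06 over all genes. The type I receptor chains Ifnar1 and Ifnar2 had estimates of -0.49 and -0.16 and the factor Irf1 -0.04, with edgeR adjusted p-values of 0.610 or more.

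In iILC1 0 of 69 pathway genes were called between genotypes by edgeR's test, against 0.0482% of all genes, and unadjusted p was under 0.05 for 3, all higher in cKO. Estimates were higher in cKO for 47 of 69, with a median of 0.16 against 0.01 over all genes. Ifng, Ifnar1, Ifnar2 and Irf1 had estimates of 0.15, -0.23, 0.42 and 0.45, none with an edgeR adjusted p under 0.978. Of the ligands other than Ifng, 9 of 16 had enough counts to be tested, and the highest group mean was 5.01 CPM, for Ifnb1 in cKO iILC1.

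Between the cell types in cKO mice, 10 of 69 pathway genes were higher and 2 lower in iILC1, where 3.42% of all genes were called. In control mice 2 were higher and 1 lower, where 3.91% of all genes were called. The interaction called 0 of 69 by edgeR's test, with 5 at an unadjusted p under 0.05, so that the calls are not shown to differ between the genotypes. The 4 with the smallest p in cKO mice were Ifi213, Ifng, Slfn5 and Ifi211, with log2 fold changes of 1.34, 2.21, 1.57 and 2.40 and edgeR adjusted p-values of 1.0e-05, 4.3e-05, 0.000153 and 0.000511. Ifi213 and Ifi211 belong to the p200 family of DNA-binding proteins and Slfn5 to the Schlafen family. Ifi213 and Slfn5 were higher in iILC1 of control mice too, by 0.98 and 1.53 (edgeR adjusted p 0.00655 and 0.00237). Irf8, a factor of myeloid and NK development, was lower in iILC1 in both genotypes, by -1.34 in control (edgeR adjusted p 0.00200) and -0.86 in cKO (0.0202).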

How the data were processed

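Bulk RNA-seq libraries of iNK and iILC1 cells were used. The table the authors deposited holds unnormalized read counts by Ensembl gene, made from SMART-Seq v4 and Nextera XT libraries per the labels' protocols. The submitters' processing notes name mm10, HISAT2 2.1.0, Trimmomatic 0.33 and, from Subread 1.6.5, featureCounts. Annotation release, strand setting and handling of multiply mapped reads are not given in the sources used here, so that counts of near-copies (Ifit3 and Ifit3b, the Oas1, Oasl and Trim30 families) and of 8 members that share exon positions with another gene (among them Irf9 with Rnf31) are uncertain. Of 46078 identifiers, 45143 (97.97%) matched a symbol.

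Genes passing filterByExpr (minimum count 10, minimum total 15; 26990 genes) were fitted with edgeR 4.0.16 (R 4.3.3) by a quasi-likelihood test over all 14 libraries with 4 group means and TMM factors. It was two-sided, with Benjamini-Hochberg adjustment over all genes at 0.05. SEs came from F statistics. Alternatives used DESeq2 1.42.0, other filters, scaling or samples, a replicate block, a background covariate, and each library left out. On counts simulated for the iNK comparison over 25486 genes, the test recovered 43% of genes changed by 1 and 94% of those changed by 2 on the log2 scale. It made 6 false calls. The changed genes were drawn from those with a mean above 5 CPM. These shares therefore do not cover genes below that level, where Isg15 lay in both iNK groups. No 2 replicates were alike within sampling noise (chi-square over its degrees of freedom 4.6 to 24.9). Promoters came from RefSeq (GRCm38.p6).

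Members and lists were chosen with earlier results of these data known. Each member called in a contrast, the 6 highest per kb and the 3 with the smallest p in each genotype contrast and the interaction are given by library, as are, by estimate, up to 4 called pathway genes per contrast and Ifnar1, Ifnar2, Irf1 and Ifng between genotypes. A gene of the pathway list is not reported here.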

Additional observations from a re-analysis of the deposited data

Results flagged for a closer look

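Of 74 sets of 4 libraries of 1 member in 1 group that were examined, 2 held a library far from the other 3, where chance flags about 1 of 20. Ifit3, an RNA-binding IFIT protein, stood at 6.38 CPM in cKO iNK replicate 2 and at 9.75 to 10.1 CPM in the other 3 libraries of the group. In that library most other members were low too. Parp9, a protein of the ADP-ribosyltransferase family that acts with DTX3L, stood at 130 CPM in cKO iILC1 replicate 1 and at 74.6 to 81.8 CPM in the other 3. Neither gene was called in any comparison.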

How the results depend on the processing

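Members called between genotypes in iNK (0) became 1 with DESeq2, no filter on low counts, a filter at a mean of 5 CPM, only the 2 groups compared, or the replicate block, and 2 with the background covariate, and ranged from 0 to 1 when 1 library was left out. The added calls were Isg15 or Lgals3bp. Lower estimates numbered 22 to 29 in the 15 alternatives, and the median was -0.326 to -0.13. In iILC1 no alternative called a member, and the median reversed to -0.0244 with the 5 CPM filter, -0.0176 with the covariate, -0.0157 without control iNK replicate 1 and cKO iILC1 replicate 1, -0.041 without control iILC1 replicate 2 and -0.0175 without cKO iILC1 replicate 1, within -0.041 to 0.182 over libraries left out. Between cell types in control mice the count (1) became 4 with the 5 CPM filter, 2 with the covariate and 0 without the 2 libraries, and 0 to 1 with 1 library left out. There the median reversed to 0.0631, 0.00164 (only the 2 groups) and 0.179 (covariate), and ran from -0.188 to 0.0183 with 1 library left out. In cKO mice the count (5) became 10 with the covariate and 3 without the 2 libraries, and 3 to 7 with 1 left out. For the interaction (0) it became 1 with DESeq2, no filter and the replicate block, and 0 to 1 with 1 library left out. The causes were not tested.

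The labels do not tie the replicate numbers to animals or batches, and the deviations of same-numbered libraries correlated at 0.0728, -0.02 and 0.0608 in iNK, 0.354, 0.0163 and 0.132 in iILC1, 0.242, -0.0204 and 0.142 between cell types in control and 0.139, 0.0417, 0.0985 and -0.0918 in cKO. No comparison had all pairs over 0.1, so that the numbers were not taken to pair the samples; in none did every library correlate best with its own number. With the replicate block Isg15 had a log2 fold change of -2.32 in iNK and 3.08 for the interaction. The number of all genes called ranged from 63 to 356 in iNK (110), 4 to 53 in iILC1 (13), 10 to 56 for the interaction (21), 713 to 1640 between cell types in cKO (923) and 394 to 2212 in control (1056). With DESeq2, 70 of 294 calls in iNK were higher against 42 of 110 with edgeR, 26 of 46 against 6 of 13 in iILC1, and 18 of 37 against 6 of 21 for the interaction. Low counts limit Isg15 (2 to 97 per library) and Ifi27l2a (2 to 46).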
